A study of Mus musculus with 219 samples.

Results

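The 2 polar sites of sperm deposition were compared in 2-cell mouse embryos: contralateral ICSI, in which the sperm head was released at the vegetal pole, away from the MII spindle, and ipsilateral ICSI, in which it was released at the animal pole, beside the spindle. ICSI is the injection of a single sperm head into the oocyte, and MII is the arrested second meiotic division at which an ovulated oocyte waits for the sperm. All oocytes were B6C3F1 and all sperm heads were CD1, taken from 1 cryopreserved batch, so both groups shared genotype, sperm source and KSOM(aa) culture. By label they differed in the injection site, and also in their split over plates and rows of wells, given below. On the day after ICSI each 2-cell embryo was bisected, and both blastomeres were sequenced as separate SMART-Seq libraries. Counts were available for 46 contralateral and 48 ipsilateral blastomeres, among 194 libraries with counts in the series. A blastomere was kept when at least 9500 genes had a count in it, and an embryo when both of its monozygotic blastomeres were kept. Too few genes were counted in 2 contralateral and 3 ipsilateral blastomeres, and 84 blastomeres were left in pairs. The counts of sister blastomeres were added, giving reconstituted embryos as replicates: 21 contralateral (18 on plate 1 and 3 on plate 2) and 21 ipsilateral (13 on plate 1 and 8 on plate 2). Within each plate the sites occupied separate rows of wells, so that site and row cannot be told apart.

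A mouse oocyte is polarized before it is fertilized: the spindle lies under an actin cap at the animal pole, whereas most of the remaining surface is where sperm normally enter. Maternal transcripts stored in the oocyte direct the first cell cycle and are then degraded, while the embryonic genome becomes active at the 2-cell stage with a burst of genes such as the Zscan4 and Obox families. A comparison of the polar sites therefore asks whether the distance between sperm and spindle leaves a mark on this mixture of maternal and newly made RNA, and, where none is detected, how large a mark could have been missed.

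Embryos of both sites had the expression of an early mouse embryo. The 10 oocyte and 2-cell identity genes examined, among them Gdf9, Bmp15, Dppa3, Zscan4d and Zfp352, had counts in all 42 embryos, and their summed level, in CPM (counts scaled to library size with TMM factors), ran from 3765 over a median of 4427 to 5338 in contralateral embryos and from 3652 over 4176 to 5544 in ipsilateral embryos. Summed CPM of 7 cumulus cell markers was 0 to 49.3 in contralateral and 0.63 to 57.5 in ipsilateral embryos, with Ptx3 and Amh at 0 throughout, and that of 6 sperm markers was 0 to 21.1 and 0 to 26.7, with Tnp2 and Smcp at 0. Of the other markers, some were counted in most embryos and others in fewer. In contralateral and ipsilateral embryos, the cumulus markers Fshr, Foxl2 and Has2 had a count in 2 and 1, 3 and 5, and 8 and 13. The sperm markers Prm1, Tnp1 and Akap4 had a count in 1 and 1, 5 and 1, and 1 and 0. Cyp19a1 of cumulus cells had a count in 18 contralateral and 17 ipsilateral embryos, and Prm2 of sperm in 17 and 16. The longer cumulus list used below had summed medians of 210 CPM in contralateral and 201 CPM in ipsilateral embryos. Transcripts of cumulus cell markers were thus not absent. Depth differed: added counts per embryo averaged 2575532 ± 548879 (SD, n = 21) after contralateral and 3022462 ± 530536 (n = 21) after ipsilateral ICSI (2-sided permutation test, adjusted p = 0.0334 over 3 measures), a difference that on plate 1 alone had adjusted p = 0.106. The genes detected per blastomere (12018 ± 551 against 12080 ± 610, adjusted p = 0.731) and the mitochondrial share of counts (1.66 ± 0.467% against 1.51 ± 0.225%, adjusted p = 0.290) had differences within the spread between embryos. These tests had no plate term. On plate 1 alone the genes detected were 12072 ± 558 against 12417 ± 419 (permutation test, adjusted p = 0.106). The highest mitochondrial share was 3.03% in contralateral and 2.03% in ipsilateral embryos. A limit of 2% in both blastomeres kept 16 contralateral and 20 ipsilateral pairs of 21 each.

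No gene passed the test for a difference between contralateral and ipsilateral ICSI. Of 11495 genes tested with edgeR's quasi-likelihood test with plate as a covariate, 0 (0.00%) had a Benjamini-Hochberg adjusted p under 0.05, and the smallest adjusted p was 0.998. At an unadjusted p under 0.05 there were 491 genes (4.27%), of which 272 (2.37%) were higher and 219 (1.91%) lower after contralateral ICSI. Other tools on the same genes also made 0 calls, with 602 genes at an unadjusted p under 0.05 by DESeq2, 889 by limma-voom and 862 by the rank-sum test on CPM. In 0 of the 11495 genes did the values of the 21 contralateral embryos lie wholly outside those of the 21 ipsilateral embryos. Of the genes tested 5878 had a positive log2 difference (contralateral minus ipsilateral), the median difference was 0.01, the median absolute difference 0.16, and 142 genes (1.24%) exceeded 2-fold.

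**Figure D1:**
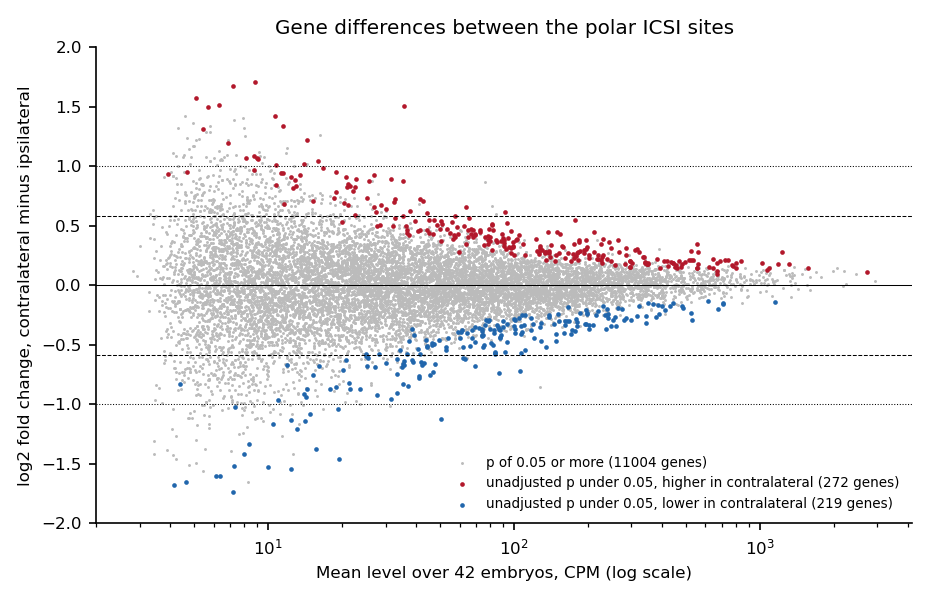
Each point is 1 of 11495 genes, with its mean CPM over 42 embryos on a log scale and its log2 fold change, contralateral minus ipsilateral; dashed and dotted lines mark 1.5-fold and 2-fold, and colours mark unadjusted p under 0.05 (272 genes higher, 219 lower). The cloud narrows with level, and the points beyond 2-fold lie at low CPM.

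Over all genes together, embryos were no nearer to those of their own site than to those of the other. Between embryos of unlike site on the same plate, the root mean square difference of log2 CPM averaged 1.51 over 258 pairs, against 1.53 over 262 pairs of like site, a difference of -0.023, or -1.53% of the like-site distance (100000 permutations of the site labels within plates, 2-sided p = 0.0510). Site accounted for 2.66% of the total variance of log2 CPM over these genes, where 2 groups of 21 drawn with no difference would take 2.44% on average, and plate accounted for 3.22%. Along component 1 (8.36% of the variance) contralateral embryos ranged from -76.9 to 58.9 and ipsilateral embryos from -45.9 to 52.3, and along component 2 (5.80%) from -105.1 to 33.9 and from -69.1 to 26.5, so that the ranges overlapped on both. Across genes, which are not independent replicates, the mean log2 CPM of the sites had a Pearson r of 0.985. The wide range of levels across genes raises such a value, so it does not measure how alike the sites are.

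The spread among embryos of each site was read from their distances within plates. The distance of an embryo from the centre of its group within a plate averaged 1.11 ± 0.131 (SD, n = 21) after contralateral and 1.07 ± 0.121 (n = 21) after ipsilateral ICSI (difference 0.038, permutation p = 0.438). On plate 1 alone it was 1.101 ± 0.136 (n = 18) against 0.996 ± 0.0736 (n = 13), a difference of 0.105 (permutation p = 0.0245), while on plate 2 it was 1.16 ± 0.105 (n = 3) against 1.19 ± 0.0708 (n = 8). A single contralateral embryo on plate 1 stood farthest from its centre, at 1.48, with 1632835 counts and a mitochondrial share of 1.02%. Without it the plate 1 difference was 0.081 (permutation p = 0.0394), that over both plates 0.018 (p = 0.723), and the number of genes called remained 0, with 617 of 11618 at an unadjusted p under 0.05.

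**Figure D2:**
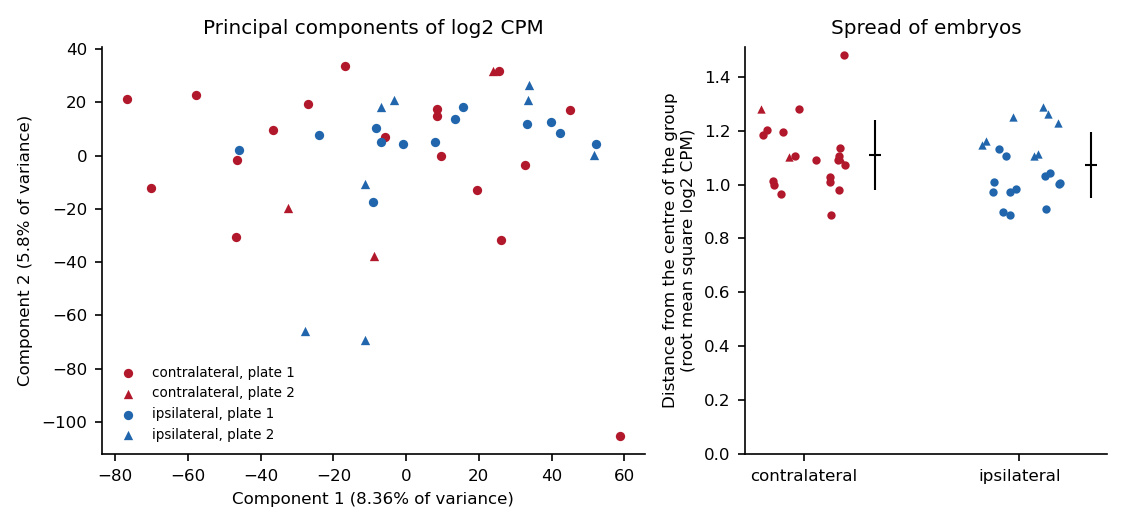
Left, components 1 and 2 of log2 CPM for 42 embryos (8.36% and 5.80% of the variance); right, each embryo's distance from the centre of its group within a plate, with mean and SD in black. Both sites share the same area, 1 contralateral embryo lies at -105.1 on component 2, and the ipsilateral embryos of plate 2 lie above most of those of plate 1.

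Single blastomeres were compared in the same way. The distance between sister blastomeres had a median of 1.85 over 21 contralateral pairs (1.48 to 2.11) and of 1.83 over 21 ipsilateral pairs (1.43 to 2.18). Blastomeres of other embryos of the same site and plate were a median of 1.92 apart after contralateral and 1.85 after ipsilateral ICSI, and blastomeres of unlike site on the same plate 1.88. These pairs share blastomeres and are given without a test.

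How large a difference the data allow was read from the 95% interval of each gene. In 4472 genes (38.9%) the interval lay inside 1.5-fold in either direction and in 7492 (65.2%) inside 2-fold. With 2 one-sided tests per gene and Benjamini-Hochberg adjustment in edgeR, 4168 genes differed by less than 1.5-fold and 7795 by less than 2-fold at an adjusted p under 0.05. The bound depended on level. In the quintile of genes with the highest mean TPM (median 186 TPM, length-scaled), 86.3% of intervals lay inside 1.5-fold and 2252 of 2298 inside 2-fold, whereas in the lowest quintile (median 5.09 TPM) 1.22% and 15.2% did.

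**Figure D3:**
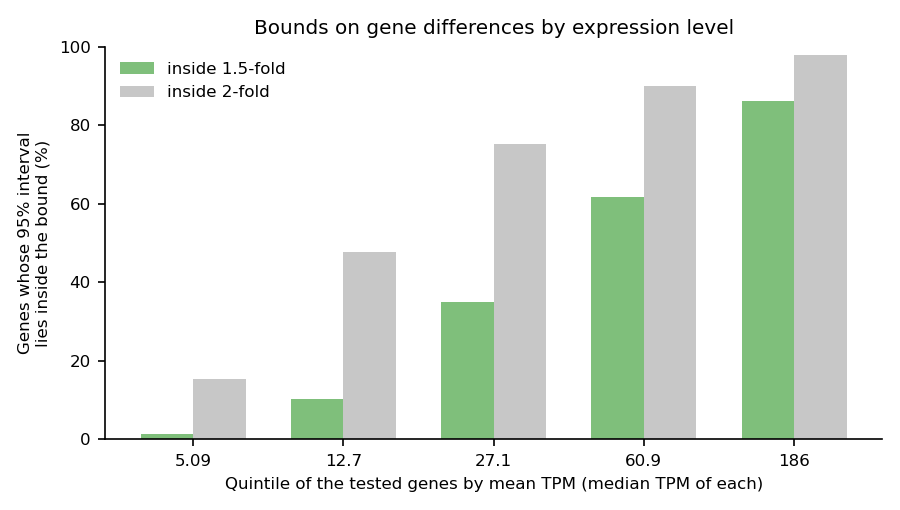
Percent of genes in each quintile of mean TPM whose 95% interval for contralateral against ipsilateral ICSI lies inside 1.5-fold (green) and 2-fold (grey); the x axis gives the median TPM of each quintile. Inside 2-fold the share runs from 15.2% in the lowest quintile to 2252 of 2298 genes in the highest.

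The tightest bounds fell on abundant transcripts. Mdm4, an inhibitor of p53, ran from 1865 over a median of 2190 to 2731 CPM in contralateral embryos and from 1709 over 2176 to 2473 in ipsilateral embryos. Its log2 difference was -0.01 with a 95% interval from -0.09 to 0.07, or 0.937- to 1.05-fold. The interval of Ddx3x, an X-linked RNA helicase, was 0.945- to 1.07-fold, and that of Trip12, a ubiquitin ligase, 0.920- to 1.04-fold. At the other end, the intervals of Slc30a7, Gm20513 and Msantd1 were the widest of the genes tested, and that of Slc30a7, a zinc transporter, ran from -2.32 to 1.56 on the log2 scale around a difference of -0.38 at 11.8 against 14.4 CPM.

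Among genes below the filter on low counts, no switch between the sites was seen. Of 20790 such genes 7781 had no count in the 42 embryos, and 0 had a count in at least 11 embryos of 1 site and in none of the other. The largest gap was that of Itga2b, an integrin subunit, with a count in 16 of 21 contralateral and 4 of 21 ipsilateral embryos at mean levels of 2.46 and 0.867 CPM. It was named after its values were seen and was not tested.

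The genes with the smallest p are given as a description, since each had an adjusted p of 0.998 in edgeR and no alternative with the filter on low counts brought any of them under 0.437. Without that filter edgeR called 18 of the 192 genes selected for naming, in a fit described at the end. Among those with a positive difference were 3 components of the spliceosome. Snrpd1, a core protein of the small nuclear ribonucleoproteins, ran from 222 over a median of 349 to 491 CPM in contralateral and from 241 over 281 to 378 in ipsilateral embryos, with a log2 difference of 0.28 ± 0.08 (SE). The groups overlapped over most of their range. The difference was 0.35 on plate 1 and 0.05 on plate 2. Snrpb2 had a difference of 0.38 ± 0.12 and Snrnp27 of 0.31 ± 0.10, also between overlapping groups, with 0.46 and 0.33 on plate 1 and 0.11 and 0.30 on plate 2.

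Prom1, which encodes the membrane protein prominin-1 (chromosome 5: 43993620-44102032, minus strand, GRCm38), had the smallest p of the named genes higher after contralateral ICSI. It ran from 22.4 over a median of 34.004 to 73.7 CPM in contralateral and from 15.5 over 22.7 to 41.7 CPM in ipsilateral embryos, a log2 difference of 0.70 ± 0.18 (SE; 95% interval 0.33 to 1.07), with 0.66 on plate 1 and 0.85 on plate 2. Zbtb20, a zinc finger transcriptional repressor, had mean levels of 46.1 ± 19.8 against 24.3 ± 12.1 CPM and a difference of 0.87 ± 0.25. Zfand3, a zinc finger protein, had 41.1 ± 17.9 against 22.03 ± 12.7 CPM. The remaining genes of this direction were Bmt2, Bzw2, Tmem117 and Pole4, with differences of 0.47, 0.73, 0.46 and 0.15. That of Pole4 was 0.20 on plate 1 and 0.03 on plate 2. In each of these 10 genes the lowest contralateral embryo lay below the highest ipsilateral embryo.

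In the other direction stood Akap13, which encodes an anchoring protein for protein kinase A (chromosome 7: 75455534-75754609, plus strand, GRCm38), and which ran from 3.84 over a median of 24.5 to 50.8 CPM in contralateral and from 24.5 over 39.4 to 96.5 CPM in ipsilateral embryos. Its log2 difference was -0.85 ± 0.24 (SE), with -1.02 on plate 1 and -0.27 on plate 2. Akap9, a scaffold of the Golgi and centrosome, had a difference of -0.38 ± 0.11, and Setd2, the methyltransferase that places trimethylation on lysine 36 of histone H3, of -0.32 ± 0.09. Nek1, a kinase of the cilium and DNA damage response, had 312 ± 53.3 against 373 ± 41.3 CPM, a difference of -0.26 ± 0.07 that was -0.25 on plate 1 and -0.26 on plate 2. Aldoa, the glycolytic aldolase (gene ID ENSMUSG00000030695), had 74.7 ± 29.6 against 109.5 ± 32.98 CPM. For Tmf1, Kctd13 and Snapc2, differences were -0.33, -0.29 and -0.72. That of Kctd13 was -0.37 on plate 1 and -0.03 on plate 2. Fam192a, at -0.34, had the opposite sign (0.08) on plate 2 alone.

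**Figure D4:**
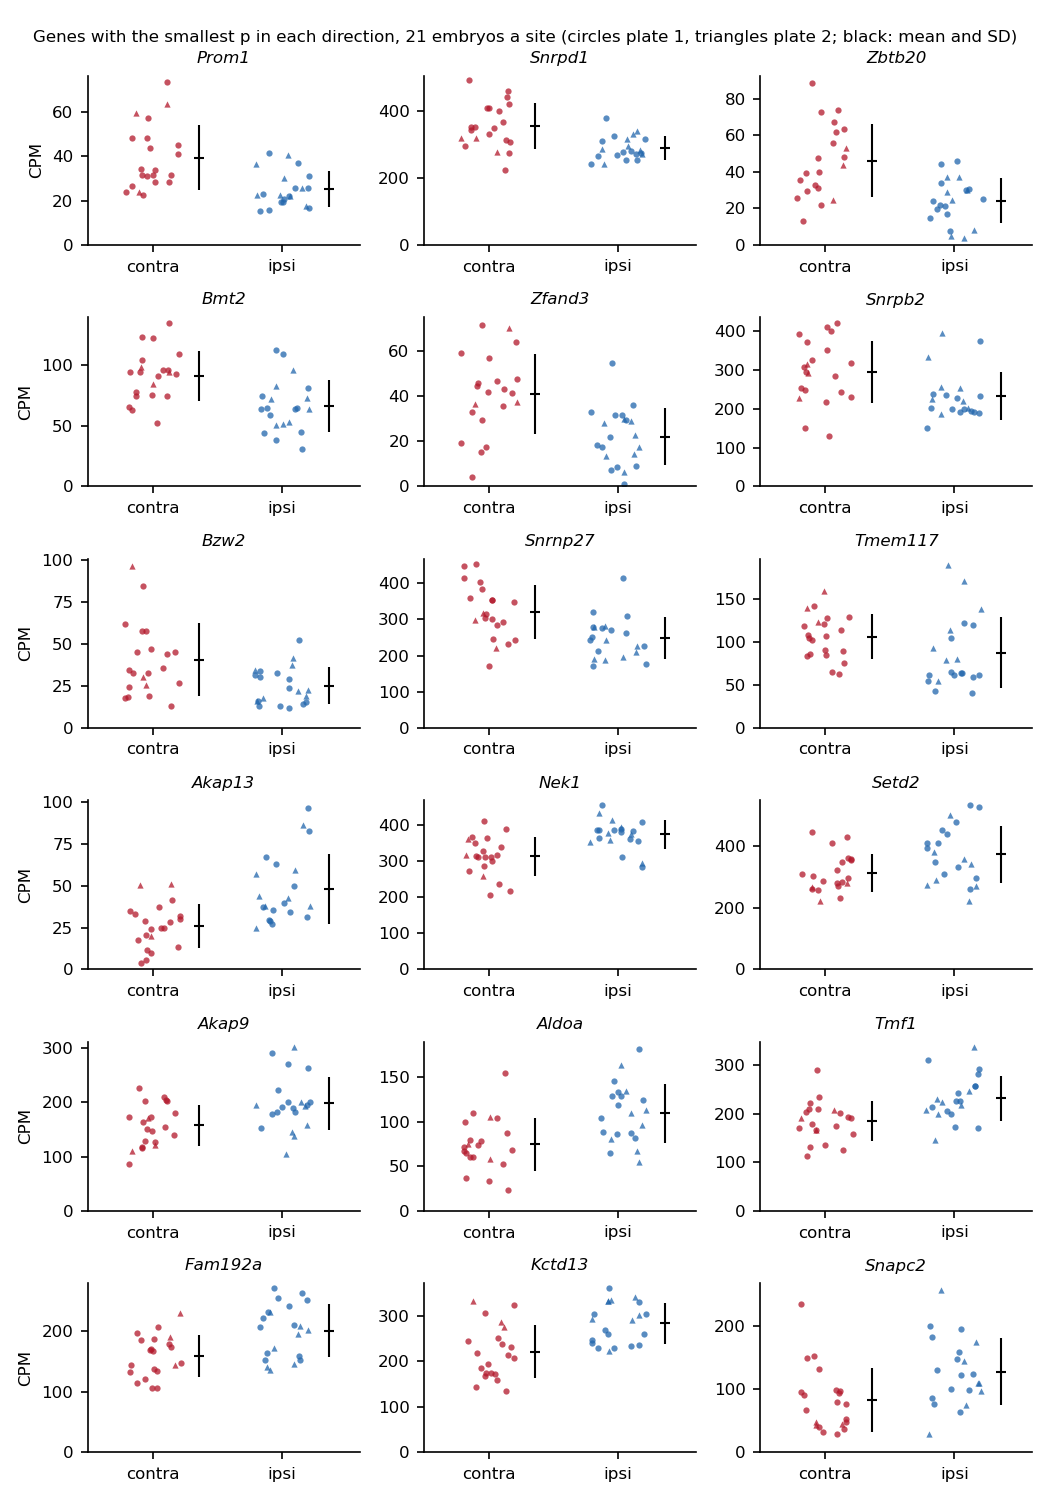
CPM of the 9 genes with the smallest p in each direction in every embryo (red contralateral, blue ipsilateral; circles plate 1, triangles plate 2; black, mean and SD, n = 21 a site; each axis starts at 0). In all 18 panels the sites overlap, and the upper 9 genes have the higher contralateral mean, the lower 9 the higher ipsilateral mean.

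Exonic length moved with the sign of these differences. Among the genes at an unadjusted p under 0.05 the median exonic length was 4082 bases for the 272 higher and 5348 bases for the 219 lower after contralateral ICSI, against 4319 bases over 11491 tested genes with a length. The shortest quintile of genes (median 1444 bases) had a median log2 difference of 0.04 with 69 genes higher and 21 lower, and the longest (median 10102 bases) one of -0.01 with 42 higher and 68 lower. With the total count and the genes detected as covariates in the edgeR fit, the log2 difference of Prom1 was 0.60, that of Akap13 -0.81 and that of Nek1 -0.28, and 0 genes were called. Whether length had a part in the differences of the genes named above was not tested, and the well rows cannot be told apart from the site.

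Independent embryos of the same sites were available as blastocysts, 17 contralateral and 15 ipsilateral (twin pairs added, and intact embryos). Of 10080 genes tested there, 0 (0.00%) had an adjusted p under 0.05 in edgeR and 746 (7.40%) an unadjusted p under 0.05, while DESeq2 called 13. Of the 20 genes with the smallest p, 10 in each direction, 19 were tested, 11 had the sign of the 2-cell stage and 1 of these an unadjusted p under 0.05: Snrnp27, with a log2 difference of 0.28 (95% interval 0.05 to 0.51, adjusted p = 0.611 in edgeR). Prom1 had 0.65 (-0.32 to 1.63) and Zbtb20 0.64 (-0.17 to 1.45), close in size to their 2-cell differences but with intervals that hold 0. Others were not close: Bzw2 had 0.004 (0.73 at the 2-cell stage), Bmt2 -0.08 (0.47) and Pole4 -0.19 (0.15). Of the 9 genes tested that were higher at the 2-cell stage, 7 were higher in blastocysts. Akap13 had -0.29 (-0.80 to 0.23). Of the 10 genes lower at the 2-cell stage, 4 were lower in blastocysts.

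Function by function, the summed level of a group of genes had a narrower 95% interval than the median of its single members in 45 of 46 lists, the exception being the mitochondrially encoded proteins. For 46 lists covering 1939 genes, 1667 of them tested, the log2 of the summed CPM per embryo was compared between sites with plate as a covariate. The 95% interval lay inside 1.1-fold for 32 lists, inside 1.2-fold for 44 and inside 1.5-fold for all 46. In 7 lists it left out 0. In TPM, which weights members per length, 5 lists did so, and 1 list, the Atf4 stress response, was common to both scales. The intervals are not adjusted for the number of lists, and no count of members called is available, since 0 genes were called. Abundant members weigh most in a sum of CPM, and abundant genes leaned to the contralateral side. In the quintile with the highest mean TPM, 1361 of 2298 genes had a positive difference, against 5878 of 11495 over all genes. In that quintile 8.31% were at an unadjusted p under 0.05, more of them higher than lower, against 4.27% of all genes. Over all genes 2.37% were higher and 1.91% lower at that threshold, and the counts of members below stand beside these shares. Whether any list differs from other genes of like level was not tested.

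**Figure D5:**
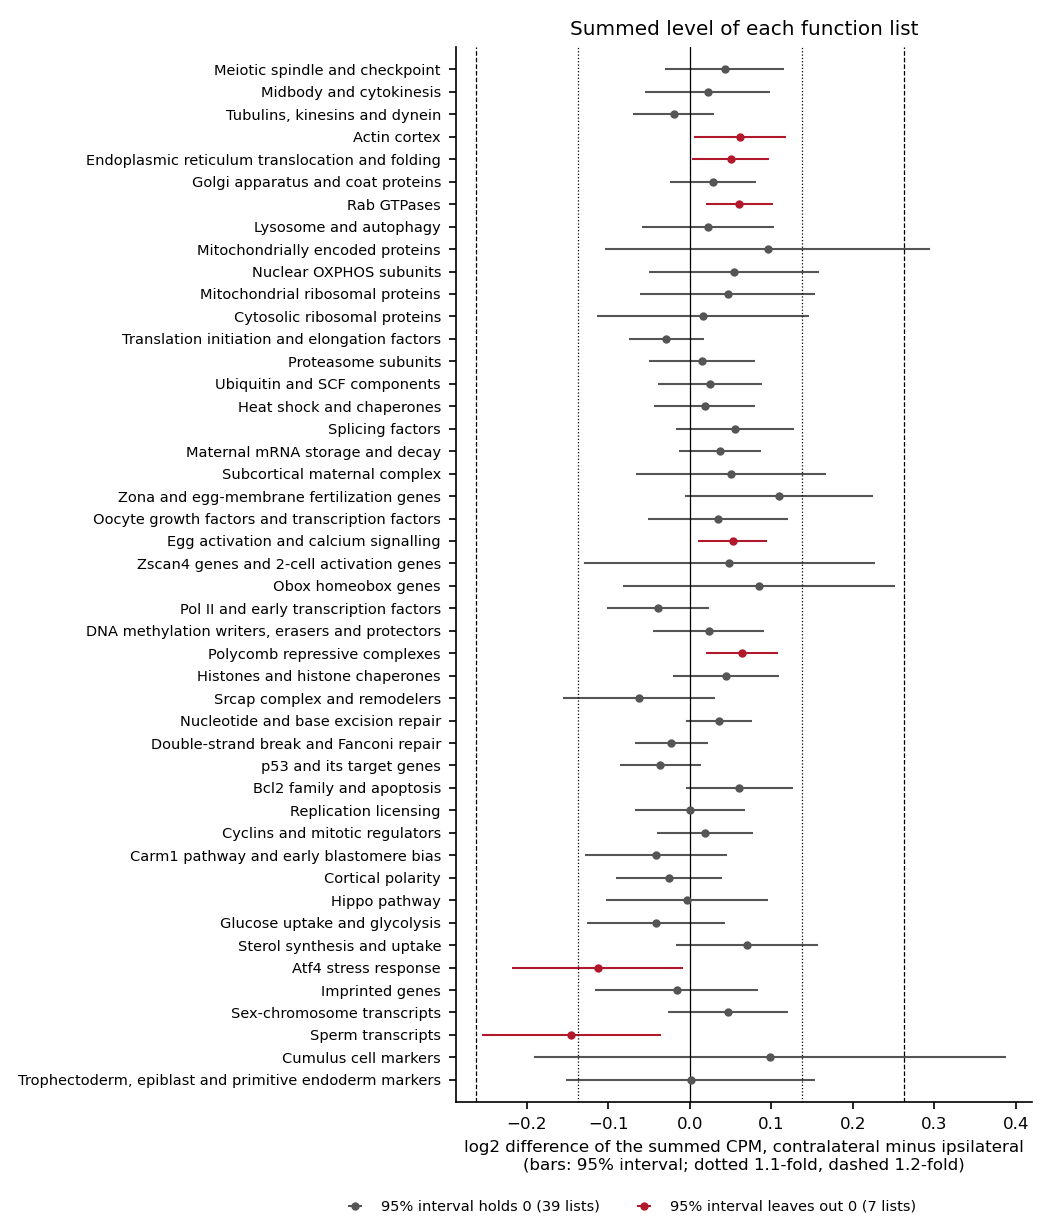
Log2 difference of the summed CPM of each of 46 function lists, contralateral minus ipsilateral, with its 95% interval (21 embryos a site); dotted and dashed lines mark 1.1-fold and 1.2-fold. The cumulus cell markers have the widest interval, and the 7 lists in red have intervals that leave out 0.

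Genes of the spindle, beside which an ipsilateral sperm head was placed, had a sum whose interval held 1. The paper counts both polar sites as ones where the needle passes near the spindle and could damage it. Of 39 tested genes of the meiotic spindle and its checkpoint, 2 were at an unadjusted p under 0.05 with a positive difference and 0 with a negative one, their median log2 difference was -0.04 (0.01 over all genes), and 27 (69.2%) had an interval inside 1.5-fold. The 2 were Pttg1, the securin that holds back sister chromatid separation, at 1330 ± 270 against 1118 ± 262 CPM (0.28, 95% interval 0.10 to 0.45), and Birc5, the survivin of the chromosomal passenger complex (0.20, 0.06 to 0.33). Aurkc, the Aurora kinase of meiosis, had 0.05 (-0.15 to 0.25). The list's sum was 1.03-fold, with an interval from 0.979 to 1.08. Sums of the midbody and cytokinesis genes (0.962 to 1.07) and of tubulins, kinesins and dynein (0.953 to 1.02) held 1 as well. Tubg1, which nucleates microtubules, had -0.30 (-0.54 to -0.06), with -0.40 on plate 1 alone and the opposite sign (0.06) on plate 2 alone.

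For the actin cortex the summed level was 8443 ± 539 CPM after contralateral and 8072 ± 453 CPM after ipsilateral ICSI, 1.04-fold with an interval from 1.00 to 1.09 that left out no difference, though in TPM it was -0.01 to 0.09 on the log2 scale. Of 40 tested members 2 were higher and 1 lower at an unadjusted p under 0.05 (7.5%, against 4.27% of all genes), with a median difference of 0.08. Fmn2, the formin that moves the oocyte spindle to the cortex, ran from 364 over a median of 511 to 677 CPM in contralateral and from 374 over 456 to 546 CPM in ipsilateral embryos (0.18, 0.05 to 0.30). Without Rock1, its largest member, the sum's log2 difference was 0.07 (0.01 to 0.12). The cortical polarity genes had 0 of 29 at an unadjusted p under 0.05 in either direction. Neither list's count was tested against the 4.27% of all genes. Cdc42, a GTPase of cell polarity that is in both lists, had 345 ± 64.3 against 300 ± 69.3 CPM (0.13, -0.04 to 0.30).

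Of 4 endomembrane lists, 2 had a CPM sum whose interval left out 0. The Rab GTPases, which direct vesicle traffic, summed to 1.04-fold (1.01 to 1.07). Of 39 members 4 were higher and 2 lower at an unadjusted p under 0.05, 15.4% against 4.27% of all genes. Rab11a of the recycling endosome had 360 ± 55.5 against 315 ± 54.3 CPM (0.23, 0.08 to 0.39), with 0.30 on plate 1 and 0.01 on plate 2. On the log2 scale the Rab sum differed by 0.06, and by 0.09 on plate 1 alone (0.05 to 0.13). Without the plate term it differed by 0.04 (-0.01 to 0.09), where the interval held 0. Endoplasmic reticulum translocation and folding genes summed to 1.04-fold (1.00 to 1.07; 4 higher and 0 lower of 51), with Atl2, an atlastin that shapes the reticulum, at 0.24 (0.04 to 0.43). With TPM in place of CPM neither interval left out 0. Golgi and coat protein genes (0.983 to 1.06) and lysosome and autophagy genes (0.960 to 1.07) had intervals that held 1.

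The 13 mitochondrially encoded proteins had wide spread between embryos. Each had a positive difference, from 0.09 to 0.18, and each had an interval inside 1.5-fold, with 0 at an unadjusted p under 0.05. mt-Atp6, a subunit of the ATP synthase, ran from 1173 over a median of 1963 to 3787 CPM in contralateral and from 1306 over 1846 to 2571 CPM in ipsilateral embryos. The contralateral group reached higher but enclosed the ipsilateral range. The list summed to 16718 ± 4518 against 15172 ± 2352 CPM, 1.07-fold (0.930 to 1.23). These transcripts come from the same mitochondrial genome, so their common sign is not independent evidence. With the total count and the genes detected as covariates, mt-Atp6 had 0.004 and mt-Co3 0.03, while mt-Cytb had -0.001 and mt-Nd3 -0.008. The mitochondrial share of counts given above was also higher in mean after contralateral ICSI. Nuclear OXPHOS subunits (0.965 to 1.12; 4 higher and 1 lower of 78) and mitochondrial ribosomal proteins (0.959 to 1.11; 2 and 0 of 75) also held 1.

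Translation, protein turnover and RNA processing had CPM sums whose intervals held 1. Of 84 cytosolic ribosomal protein genes 75 (89.3%) had an interval inside 1.5-fold against 38.9% of all genes, though they are also more abundant, with 1 higher and 0 lower at an unadjusted p under 0.05 and a sum of 0.924- to 1.11-fold. Translation initiation and elongation factors had 0 higher and 4 lower of 59, Eif2ak3, an eIF2 alpha kinase of the reticulum, having the smallest p (-0.47, -0.88 to -0.06), and a summed log2 difference of -0.03 (-0.07 to 0.02). Proteasome subunits (0.965 to 1.06), ubiquitin and SCF components (0.974 to 1.06) and chaperones (0.970 to 1.06) held 1. Splicing factors had 6 higher and 0 lower of 65 at an unadjusted p under 0.05, 3 of them the genes named above, and a sum of 1.04-fold (0.988 to 1.09), which on plate 1 alone was 0.08 on the log2 scale (0.01 to 0.16). That count is 9.23% of the list, against 4.27% of all genes tested. In the quintile with the highest mean TPM the share was 8.31%, with more genes higher than lower after contralateral ICSI. Whether splicing factors differ from other genes of like level was not tested.

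Dppa3, a maternal protector of DNA methylation, had 1646 ± 323 against 1543 ± 200 CPM (0.07, -0.07 to 0.21), and Zbed3 of the subcortical maternal complex list 2963 ± 527 against 2903 ± 401 CPM (0.04, -0.10 to 0.17). The 15 genes of that list were all inside 2-fold. At an unadjusted p under 0.05, 2 were higher and 1 lower, 20% of the list against 4.27% of all genes. Ooep, a component of the complex, had 0.28 (0.04 to 0.52) and Nlrp4f 0.28 (0.01 to 0.55). The list summed to 0.955- to 1.12-fold. Zbed3 made up 50.8% of that sum, and without it the log2 difference was 0.07 (-0.06 to 0.20). For maternal mRNA storage and decay the sum was 0.991- to 1.06-fold, and Btg4, which licenses deadenylation of maternal mRNA, had 1655 ± 285 against 1491 ± 209 CPM (0.15, 0.01 to 0.28). Oocyte growth and transcription factors summed to 0.965- to 1.09-fold. The zona and egg-membrane genes, led by Oosp1 (0.14, 0.01 to 0.28) with 41.1% of the summed CPM, summed to 1.08-fold (0.995 to 1.17). The interval of that sum left out 0 in TPM (0.00 to 0.18 on the log2 scale) and without the plate term (0.02 to 0.24).

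The egg activation and calcium signalling list had a sum of 6081 ± 329 against 5855 ± 211 CPM, 1.04-fold with an interval from 1.01 to 1.07. In TPM the log2 difference was 0.01 (-0.03 to 0.06), an interval that held 0. Of 34 tested members 4 were higher and 1 lower at an unadjusted p under 0.05 (14.7%, against 4.27% of all genes), and the median difference was 0.00. Rgs2, a regulator of G-protein signalling that restrains calcium release, ran from 72.6 over a median of 175 to 296 CPM in contralateral and from 61.7 over 115.1 to 282 CPM in ipsilateral embryos (0.43, 0.12 to 0.74). Wee2, the oocyte kinase that permits exit from MII, had -0.04 (-0.16 to 0.07).

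Among genes of embryonic genome activation, the Zscan4 and Obox lists had sums with wider intervals than the polymerase list given last. Of their single genes 43.2% and 50% had an interval inside 1.5-fold, against 38.9% of all genes, though they are also more abundant. The Zscan4 and 2-cell activation list summed to 3931 ± 790 against 3783 ± 659 CPM, 1.03-fold (0.914 to 1.17), with 2 higher and 0 lower of 37. Zfp352 had 369 ± 70.6 against 370 ± 73.6 CPM (-0.01, -0.19 to 0.17), and Zfp750, a zinc finger gene of this list, 0.65 (0.20 to 1.11). The 8 Obox genes, homeobox genes of the oocyte and 2-cell stage, summed to 1.06-fold (0.945 to 1.19) and were all inside 2-fold, with Obox5 at 0.09 (-0.04 to 0.22) and Obox7 at 0.45 (0.08 to 0.82). Obox5 made up 48.5% of the Obox sum, which without it had a log2 difference of 0.08 (-0.15 to 0.31). RNA polymerase II and early transcription factor genes summed to 0.932- to 1.02-fold.

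Among chromatin genes, the list whose sum left out 0 depended on the scale. The Polycomb repressive complexes, which silence developmental genes through histone H3 lysine 27 methylation and H2A ubiquitination, summed to 7870 ± 435 against 7528 ± 266 CPM, 1.05-fold with an interval from 1.01 to 1.08, which in TPM was -0.00 to 0.09 on the log2 scale and held 0. Only 1 of 30 members was at an unadjusted p under 0.05 (Cbx7, at a mean of 6.70 TPM, 0.92, 0.04 to 1.81), 25 had an interval inside 1.5-fold, and Suz12, a core subunit, had 0.08 (-0.03 to 0.20). DNA methylation genes (0.969 to 1.07), histones and their chaperones (0.986 to 1.08) and the Srcap complex and remodelers (0.898 to 1.02) had CPM sums whose interval held 1, but in TPM the Srcap list had -0.10 (-0.21 to -0.00), an interval that left out 0. Npm1, a nucleolar histone chaperone, had 0.21 (0.07 to 0.35) and Actl6a, an actin-related remodeler subunit, -0.61 (-1.01 to -0.21).

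For DNA repair, double-strand break and Fanconi genes had 0 higher and 1 lower of 73 tested at an unadjusted p under 0.05, a median difference of 0.03 and a sum of 0.954- to 1.02-fold. Usp1, the deubiquitinase of the Fanconi pathway, had 635 ± 79.5 against 628 ± 60.7 CPM (0.00, -0.11 to 0.12). Nucleotide and base excision repair genes summed to 0.997- to 1.05-fold, with 3 higher and 0 lower of 43, Pole4, an accessory subunit of DNA polymerase epsilon, at 0.15 (0.06 to 0.25). In TPM that sum's log2 difference was 0.05 (0.01 to 0.10), while the median difference of the tested members was -0.08. Pole4 made up 17.4% of the CPM sum, and without it the log2 difference in CPM was 0.01 (-0.04 to 0.06). The sum of p53 and its target genes was 0.942- to 1.01-fold, and in TPM -0.09 on the log2 scale (-0.18 to -0.01). Mdm4 made up 48.2% of the CPM sum, and without it the log2 difference was -0.06 (-0.13 to 0.01). The Bcl2 family summed to 0.996- to 1.09-fold. Bcl2l10, its most abundant member by TPM, had 0.10 (-0.03 to 0.24) and made up 41.7% of the CPM sum. Without Bcl2l10 the log2 difference of the sum was 0.03 (-0.02 to 0.09). Replication licensing (0.954 to 1.05) and cyclins and mitotic regulators (0.972 to 1.06) held 1, with Cks2 at 0.12 (-0.04 to 0.29).

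Genes known for early blastomere bias and later fates were as follows. In the Carm1 pathway and early bias list 0 of 18 were at an unadjusted p under 0.05 in either direction, the sum was 0.915- to 1.03-fold, and Pou5f1, the pluripotency factor Oct4, had 117.99 ± 50.5 against 143 ± 45.4 CPM (-0.14, -0.38 to 0.10). Hippo pathway genes, which govern the trophectoderm decision, summed to 0.931- to 1.07-fold, with 1 higher and 1 lower of 24 at an unadjusted p under 0.05. Member differences ran from -1.73 to 0.73, with Yap1 at 0.04 (-0.10 to 0.18) and Tead1, at a mean of 4.45 TPM, at 0.73 (0.11 to 1.36). Blastocyst lineage markers, at summed medians of 647 against 672 CPM, had a sum of 0.900- to 1.11-fold and 2 of 20 intervals inside 1.5-fold. The 28 tested imprinted genes had 0 at an unadjusted p under 0.05, 9 intervals inside 1.5-fold and a sum of 0.922- to 1.06-fold. The 8 sex-chromosome transcripts tested, led by Usp9x, likewise had 0, and a sum of 0.981- to 1.09-fold. Usp9x made up 37.9% and Ddx3x 37.6% of that sum.

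The metabolic and stress lists were compared in the same way. The Atf4 stress response list, targets and regulators of the transcription factor that answers amino acid shortage, summed to 2296 ± 308 against 2501 ± 220 CPM, 0.924-fold with an interval from 0.860 to 0.994. Of 30 members 1 was higher and 3 lower at an unadjusted p under 0.05, 13.3% against 4.27% of all genes. Ppp1r15a, the Gadd34 phosphatase subunit, ran from 116.6 over a median of 234 to 414 CPM in contralateral and from 197 over 281 to 468 CPM in ipsilateral embryos (-0.35, -0.60 to -0.09). Sesn2, a stress-induced sestrin, had -0.50 (-0.98 to -0.02), whereas Wars, the cytosolic tryptophanyl-tRNA synthetase, had 0.93 (0.32 to 1.53) and Mthfd2, the list's largest member, 0.00 (-0.13 to 0.14). On plate 1 alone the interval of the sum held 0. Glucose uptake and glycolysis genes had 1 higher and 4 lower of 32 (15.6%). Their sum was 0.916- to 1.03-fold, and without Ldhb, their largest member, -0.10 on the log2 scale (-0.19 to -0.00). Sterol synthesis genes summed to 0.988- to 1.12-fold.

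The list of sperm transcripts had the lowest ratio of sums, 312 ± 46.6 against 343 ± 28.7 CPM (0.904-fold, 0.838 to 0.976), but 84.1% of it came from Odf2, which also encodes a centriole protein of other cells, at 257 ± 43.6 against 294 ± 31.1 CPM (-0.20, -0.35 to -0.06). Without Odf2 the log2 difference was 0.19 (-0.22 to 0.60), and in TPM the list's was 0.04 (-0.17 to 0.25). On plate 1 alone it was -0.12 (-0.25 to 0.02). Prm2, the protamine carried by sperm, had a count in 17 contralateral and 16 ipsilateral embryos, at 5.64 ± 5.18 against 6.29 ± 7.82 CPM. For the cumulus cell markers the sum, 54.1% of it from Serpine2, was 0.876- to 1.31-fold, the widest interval of the lists.

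Set beside the equatorial site, fitted together with the polar sites over 55 embryos, the polar sites had the smallest median: the median absolute log2 difference was 0.18 between contralateral and ipsilateral ICSI (median SE 0.32), 0.39 between contralateral and equatorial (0.36) and 0.34 between ipsilateral and equatorial (0.36). The equatorial group held 13 embryos, and the comparisons share embryos. Whether these medians differ was not tested.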

How the data were processed

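The authors sequenced bisected 2-cell embryos and blastocysts by SMART-Seq, trimmed reads with Trimmomatic 039, checked them with FastQC 0.12.1 and aligned and counted them with STAR 2.7.10b, unstranded, on GRCm38. The deposited values are raw read counts per gene without molecular identifiers, 32285 genes, used as deposited. Unstranded counting cannot separate overlapping antisense genes, and near-identical copies such as the Obox and Zscan4 genes may share reads. The paper describes paired-end and single-end blastomere datasets, cut to first reads of equal length. Read type was not a covariate here.

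Blastomeres with at least 9500 genes counted were kept, sisters added, and 42 embryos fitted with edgeR 4.0.16 (R 4.3.3; TMM factors, filterByExpr, robust quasi-likelihood test, plate as a covariate, Benjamini-Hochberg adjustment over 11495 genes). These genes held 98.8% of counts. The 95% interval is the coefficient with its standard error from the moderated quasi-dispersion. Exonic lengths for TPM were unions of exons in GENCODE release 21 of the mouse (GRCm38), not the authors' release. Log2 CPM used a prior count of 2. Distances and depth were tested with 100000 permutations (scipy 1.17.1). Blastocysts were fitted alike with the kind of blastocyst as a covariate. Embryos have numbers of their own in each group and are separate embryos, but the labels do not tie them to mothers or ICSI sessions. The fit was tested on simulated data.

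Named genes are the 10 with the smallest p in each direction (without predicted genes), the 3 most abundant and the smallest-p member of each list, and the 3 widest and 3 narrowest intervals; some are not reported here. The 1.2-fold bound on list sums was chosen after seeing the data. The members and lists were chosen with earlier results of these data known. Alternatives were RLE factors, no filter, DESeq2 1.42.0, limma-voom 3.58.1, rank-sum tests, plates, covariates and sample sets. Labelled samples with no counts (25 of the 219) and a cell matrix were not used here.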

Additional observations from a re-analysis of the deposited data

How the results depend on the processing

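The count of 0 genes called at the 2-cell stage was the same with RLE factors (499 genes at an unadjusted p under 0.05), without the plate term (585), on plate 1 (497) or plate 2 (436) alone, with depth covariates (416), under a mitochondrial limit of 2% (492), with all pairs (570), with 3 ICSI groups in 1 fit (555) and with limma-voom (889), DESeq2 (602) or rank-sum tests on CPM (862) or TPM (916). Of the genes at an unadjusted p under 0.05, 443 of 862 were higher after contralateral ICSI in CPM and 296 of 916 in TPM; the median difference over all genes was -0.01 and -0.05 on these scales. Without a filter on low counts edgeR called 1560 of 24504 genes (885 higher), of which 1539 lay below the filter, with a count in a median of 2 embryos at 0.160 CPM. The other 21 were among the 11495, and 18 of them were among the 192 genes selected for naming. A rank-sum test on the same 24504 genes, chosen after seeing the data, called 0 (1312 at an unadjusted p under 0.05). Where only 2 embryos have a count, a rank-sum test cannot reach a small p, so its 0 decides nothing for such genes.

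Intervals inside 1.5-fold numbered 3877 (plate 1 alone) to 4602 under the alternatives. In blastocysts DESeq2 called 13 genes (12 higher) where edgeR called 0; twin pairs alone and intact blastocysts alone gave 0 in edgeR. The centre distance differed by 0.105 on plate 1 alone and by 0.0812 there without the farthest embryo, an alternative also chosen after seeing the data; the total count by -391033 on plate 1, where its adjusted p was 0.106. The cause of these changes was not tested. The sum of the sperm transcripts was 0.0378 in TPM, of the opposite sign. Intervals left out 0 in 7 lists with CPM and 5 with TPM, of which 1 was shared; in TPM the actin cortex, endoplasmic reticulum, Rab, egg activation, Polycomb and sperm lists no longer did and the zona, Srcap, excision repair and p53 lists did. On plate 1 alone 5 of the 7 left out 0, and without the plate term 6. No list left out 0 in all 4 settings. No paired analysis was possible because embryos of the groups share no replicate number.

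Bounds were widest at low level: 15.2% of intervals in the lowest quintile lay inside 2-fold. A gene that misses the threshold is not shown to be equal at both sites beyond its interval. Plate 2 held 3 contralateral embryos, and the site cannot be told apart from the well row.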
